A study of Mus musculus with 18 samples.

Results

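Aminoacyl-tRNA synthetases join each amino acid to its transfer RNA, the step that sets which residue a codon adds to a growing protein. Cells keep a cytosolic set, which serves the ribosomes that read nuclear messages, and a mitochondrial set, which serves the organelle's own ribosomes and whose genes mostly carry a final 2 in their symbol. Resting B cells are small and make little protein, and lipopolysaccharide (LPS), a bacterial cell wall component sensed by TLR4, drives them to grow, divide and begin antibody secretion. The genes described here were the rows of a mouse FPKM table whose NCBI gene ID carried a protein-coding symbol made of 1 capital letter and "ars" with or without a final 1 or 2, together with Farsa, Farsb and Eprs. The rule found 37 genes of the 16545 in the table, 20 cytosolic and 17 mitochondrial, and it used no expression value. All 37 were above 0 FPKM in every library, with a lowest value of 1.34 FPKM, so none was lost to a filter on low values.

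RNA was sequenced from total splenic B cells of C57BL/6 mice at 0, 24 and 48 h of LPS culture (D0, D1 and D2). The B-CKO group came from Zbtb24 B-CKO mice (Zbtb24 loxp/loxp with 1 allele of a B cell-specific Cre), in which Cre removes exon 2 of Zbtb24, and the CON group from littermates described as Zbtb24 +/+ with the same Cre allele, so that Cre is stated for both groups. Each genotype had 3 mice at each of 3 time points, 18 libraries in all. The age and the sex of these mice were not given in the sources used here, and the cultures held whole B cell populations, in which a smaller number of cells of a type and less RNA per cell cannot be told apart.

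Zbtb24 was at 49.6, 49.6 and 37.0 FPKM in the CON mice at 0 h and at 14.3, 10.5 and 12.6 FPKM in the B-CKO mice, with no overlap. The gap was narrower in culture, also with no overlap. CON and B-CKO means were 17.6 and 10.9 FPKM at 24 h and 15.2 and 10.4 FPKM at 48 h. Reads from the exons outside the deletion still count toward this gene. The 8 B cell markers summed to 4188 to 5675 FPKM at 0 h and to 2031 to 2679 FPKM at 24 and 48 h. At 0 h, 9 T cell markers summed to 24.1 to 34.2 FPKM, 10 myeloid markers to 4.33 to 10.6 FPKM and 8 erythroid markers to 11.9 to 71.3 FPKM. These sums were 9.16 to 15.1, 3.34 to 6.95 and 7.65 to 16.6 FPKM in the cultured cells. There the T cell marker Cd3e was at or below 0.15 FPKM. Another T cell marker, Lck, stayed at 8.11 to 13.3 FPKM in culture and made up most of the T cell sum. Most of the erythroid sum in culture was Hbb-bt, whose CON means were 2.86, 7.58 and 9.31 FPKM at 0, 24 and 48 h. Library totals lay between 453150 and 563456 FPKM. Replicates were further apart at 0 h than later: the median SD of the 37 genes on the log2 scale was 0.11 in CON and 0.16 in B-CKO at 0 h and 0.04 in both at 24 h.

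Before stimulation, most cytosolic genes stood above the mitochondrial ones: the first 16 positions in CON were cytosolic, but mitochondrial Tars2 (mean 19.9 FPKM) stood above Iars and Lars, and Iars2 (17.9) and Cars2 (16.5) above Cars (14.8) and Yars (13.1). FPKM is scaled per length of transcript, so levels may be set side by side between genes. In CON at 0 h the highest was Vars, the valyl-tRNA synthetase, at 186, 203 and 167 FPKM in the 3 mice. No other synthetase came near this level: Kars, the lysyl enzyme, followed at a mean of 53.8 ± 1.87 FPKM (SD, n = 3), Qars, the glutaminyl enzyme, at 51.8 ± 0.44 and Nars, the asparaginyl enzyme, at 42.7 ± 3.17. In each of these first 4 positions, every CON library was above every CON library of the next gene. Gars and Sars, the glycyl and seryl enzymes, came next at means of 34.4 and 34.2 FPKM, and their ranges overlapped. At the other end stood mitochondrial genes: Wars2, Nars2 and Pars2 had means of 3.13, 2.78 and 2.49 FPKM with overlapping ranges. The B-CKO mice had the same 4 genes at the head and the same 3 at the foot of the order at 0 h.

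**Figure D1:**
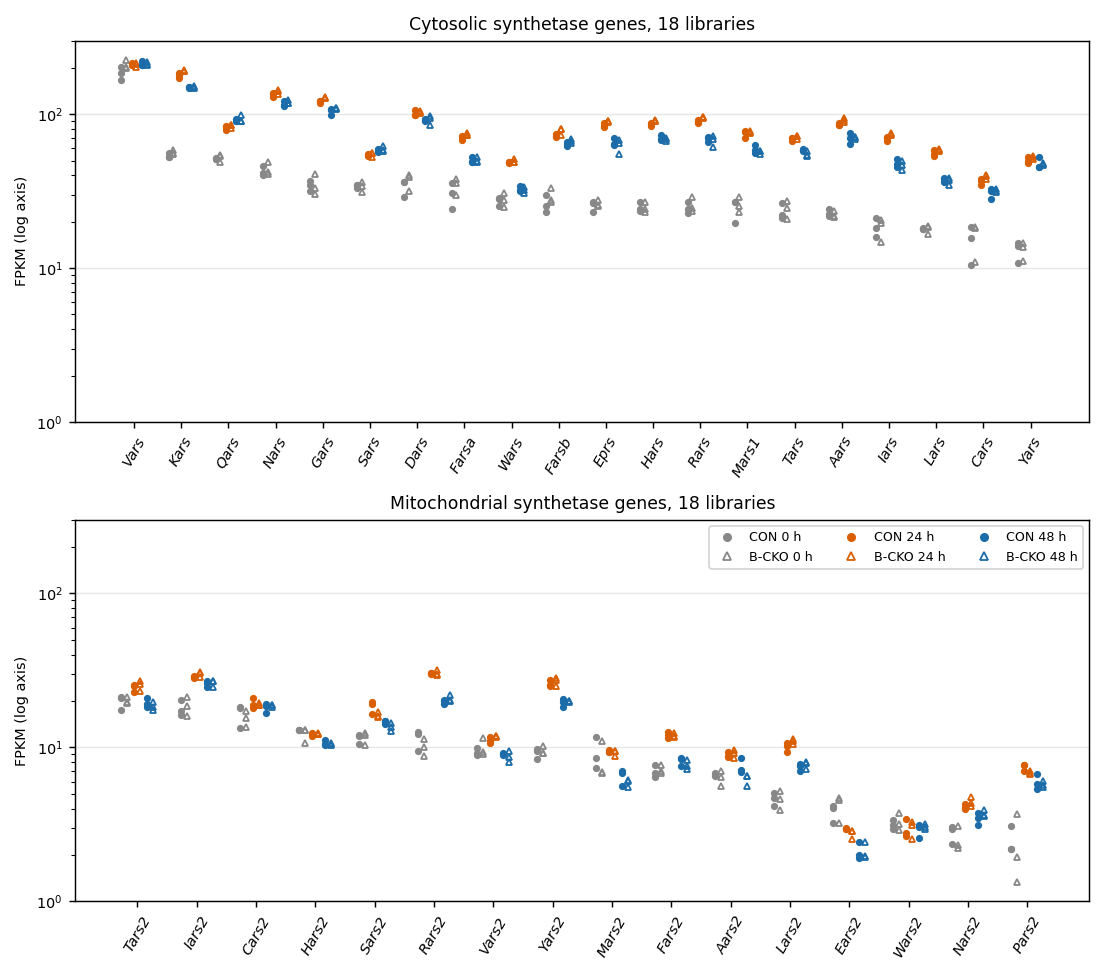
FPKM (log axis) of the cytosolic and mitochondrial synthetase genes shown by name, in each of the 18 libraries, ordered by the CON mean at 0 h. Filled circles are CON and open triangles B-CKO, with grey for 0 h, orange for 24 h and blue for 48 h; most cytosolic genes stand well above their 0 h values at 24 h, while Vars stays between 167 and 227 FPKM throughout.

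After 24 h of LPS, nearly all cytosolic synthetase genes had risen together. In CON, 31 of the 37 genes were higher and 0 lower (limma on log2(FPKM + 1), adjusted p under 0.05 over all genes tested). Over all 15531 genes tested, 26.7% were called higher and 30.7% lower, and over genes averaging 1 FPKM or more, 37.5% were higher and 35.1% lower. The cytosolic genes gave 19 of 20 higher, Vars being the exception, with a median log2 fold change of 1.58. The mitochondrial genes gave 12 of 17 higher, with a median of 0.44, beside a median of -0.02 over all genes. Without a pseudocount, the median fold of the mean FPKM was 3.08 for the cytosolic and 1.48 for the mitochondrial genes, and 16 of the 20 cytosolic but 5 of the 17 mitochondrial genes reached at least 2-fold.

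Aars, the alanyl enzyme, had the highest log2 fold change. It was at 22.4, 21.6 and 24.1 FPKM in the CON mice at 0 h and at 85.3, 85.1 and 88.2 FPKM at 24 h, so that the groups were far apart (log2 fold change 1.88, SE 0.06, limma adjusted p = 6.17e-06). Yars, the tyrosyl enzyme and the lowest cytosolic gene at rest, went from 14.4, 14.0 and 10.8 FPKM to 48.1, 49.9 and 52.6 FPKM (1.87, SE 0.11, adjusted p = 3.40e-05). Iars, the isoleucyl enzyme, went from 21.0, 18.3 and 15.8 FPKM to 66.8, 70.7 and 69.5 FPKM (1.86, SE 0.10, adjusted p = 2.43e-05). With same-numbered libraries read as 1 mouse, every one of the 3 CON mice gained at least 3.18-fold for Iars and at least 3.33-fold for Yars. Rars, the arginyl enzyme, and Gars had log2 fold changes of 1.83 (SE 0.07, adjusted p = 8.31e-06) and 1.78 (SE 0.07, adjusted p = 8.36e-06). Sars, Qars and Wars rose least among the called cytosolic genes, with folds of the mean FPKM of 1.58, 1.58 and 1.79. Vars was at 208, 209 and 215 FPKM at 24 h, just above its highest 0 h value of 203, and was not called. It was called higher in 1 fit of all 18 libraries and when the second CON library at 0 h was left out. Kars, at 172, 186 and 179 FPKM, was the second gene at 24 h and Vars was still the first.

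Promoter letters were compared between the sets. The ATF4 and C/EBP composite element, here the letters TGATGNAA on either strand, is the site through which the transcription factor ATF4 acts on amino acid response genes. RefSeq promoter windows (GRCm38.p6, the same assembly as mm10, from 250 bases before to 50 after a gene's start) matched 27 of the 37 genes, 13 cytosolic and 14 mitochondrial. The first listed window of each gene was used. For some genes, among them Aars and Eprs, its start lay inside the annotated gene span and not at the span's end. The element occurred in the windows of 5 of the 13 cytosolic genes (Aars, Gars, Iars, Tars and Yars), in 0 of the 14 mitochondrial windows and in 4.06% of the windows of 27025 genes. The E-box letters CACGTG, which read the same on both strands and are bound by MYC and related factors, occurred in 4 of 13 cytosolic windows (Aars, Farsb, Iars and Tars), in 1 of 14 mitochondrial windows (Ears2) and in 7.24% of all windows. The ETS element CCGGAAG, on either strand, occurred in 5 of 13 and 4 of 14 windows and in 9.12% of all. A match is a description of the letters, and binding was not measured.

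The 5 windows with the composite element are shown together with that of Ears2, the mitochondrial gene with the lowest log2 fold change in CON. They run 5' to 3' along the gene's strand, and capitals mark the composite element (TGATGNAA or its reverse complement) and the E-box.
Aars, chr8:111033592-111033891, plus strand: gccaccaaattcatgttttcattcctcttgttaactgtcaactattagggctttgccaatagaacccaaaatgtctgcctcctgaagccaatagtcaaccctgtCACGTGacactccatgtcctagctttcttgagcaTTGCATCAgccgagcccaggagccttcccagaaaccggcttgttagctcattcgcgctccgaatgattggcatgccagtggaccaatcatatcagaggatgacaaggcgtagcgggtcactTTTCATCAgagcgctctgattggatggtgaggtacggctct
Gars, chr6:55037751-55038050, plus strand: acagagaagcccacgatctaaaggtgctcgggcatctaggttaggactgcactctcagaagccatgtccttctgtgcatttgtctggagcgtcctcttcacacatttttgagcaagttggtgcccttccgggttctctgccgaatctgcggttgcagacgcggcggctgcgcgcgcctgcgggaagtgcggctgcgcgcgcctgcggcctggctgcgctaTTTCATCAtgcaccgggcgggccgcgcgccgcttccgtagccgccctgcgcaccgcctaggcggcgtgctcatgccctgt
Iars, chr13:49681880-49682179, plus strand: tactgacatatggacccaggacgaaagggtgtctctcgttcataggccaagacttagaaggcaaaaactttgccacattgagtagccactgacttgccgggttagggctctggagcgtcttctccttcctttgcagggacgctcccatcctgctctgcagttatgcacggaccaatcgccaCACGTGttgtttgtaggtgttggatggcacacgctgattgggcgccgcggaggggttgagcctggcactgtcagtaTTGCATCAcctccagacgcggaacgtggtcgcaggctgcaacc
Tars, chr15:11399609-11399908, minus strand: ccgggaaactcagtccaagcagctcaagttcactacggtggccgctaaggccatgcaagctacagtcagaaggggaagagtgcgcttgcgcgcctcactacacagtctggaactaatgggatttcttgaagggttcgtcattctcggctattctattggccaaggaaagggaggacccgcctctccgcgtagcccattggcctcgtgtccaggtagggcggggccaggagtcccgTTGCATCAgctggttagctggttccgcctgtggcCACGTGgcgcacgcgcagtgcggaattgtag
Yars, chr4:129189653-129189952, plus strand: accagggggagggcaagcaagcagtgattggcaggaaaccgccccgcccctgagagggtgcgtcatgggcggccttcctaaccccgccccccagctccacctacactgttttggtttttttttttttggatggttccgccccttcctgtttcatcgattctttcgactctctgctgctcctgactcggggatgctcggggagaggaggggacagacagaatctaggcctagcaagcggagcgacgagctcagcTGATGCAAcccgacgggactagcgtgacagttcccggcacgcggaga
Ears2, chr7:122067037-122067336, minus strand: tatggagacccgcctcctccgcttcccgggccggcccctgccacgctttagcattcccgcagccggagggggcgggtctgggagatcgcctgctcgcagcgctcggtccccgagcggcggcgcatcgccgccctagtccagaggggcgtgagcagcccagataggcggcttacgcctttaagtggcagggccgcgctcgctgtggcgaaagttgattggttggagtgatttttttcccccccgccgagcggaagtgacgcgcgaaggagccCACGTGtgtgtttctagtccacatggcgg
Aars held the composite element at 2 places, beginning 112 bases before and 9 bases after the start used for its window. In Gars, Tars, Iars and Yars it began 30 and 15 bases before and 7 and 3 bases after the start, respectively. Of these 5 genes, Aars, Yars, Iars and Gars were among the 5 cytosolic genes with the largest log2 fold change at 24 h, and the remaining one of those, Rars, was not matched to a window. Tars, which also held the element, had a log2 fold change of 1.547, below the cytosolic median of 1.58. Eprs and Kars, with log2 fold changes of 1.70 and 1.72, had neither the composite element nor the E-box in their windows. The motifs were chosen with earlier results of these data known, and their relation to the fold changes was not tested.

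Part of the cytosolic enzymes sit in a multisynthetase complex with the scaffold proteins encoded by Aimp1, Aimp2 and Eef1e1. All 8 genes of enzymes in this complex (Dars, Eprs, Iars, Kars, Lars, Mars1, Qars and Rars) were called higher at 24 h in CON, with a median log2 fold change of 1.64, and so were 11 of the 12 cytosolic genes outside it, with a median of 1.499. The 3 scaffold genes were also called higher. Aimp2 went from 15.7, 13.8 and 12.9 FPKM to 65.0, 68.6 and 65.3 FPKM (log2 fold change 2.16, SE 0.08, adjusted p = 8.03e-06), Eef1e1 changed by 2.10 (SE 0.11, adjusted p = 1.73e-05) and Aimp1 by 1.11 (SE 0.06, adjusted p = 2.32e-05). Aimp1, which also occurs as a secreted cytokine, thus rose less than its partners in these values, and the differences between the 3 genes were not tested. Farsa and Farsb, the subunits of the phenylalanyl enzyme, had folds of the mean FPKM of 2.34 and 2.79.

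The mitochondrial genes did not move as a block. Yars2 went from 9.50, 8.39 and 9.79 FPKM at 0 h to 25.1, 27.6 and 25.3 FPKM at 24 h (log2 fold change 1.40, SE 0.08, adjusted p = 3.05e-05). Rars2 changed by 1.34 (SE 0.11, adjusted p = 0.00012), Pars2 by 1.29 (SE 0.13, adjusted p = 0.000283) and Lars2 by 0.98 (SE 0.10, adjusted p = 0.000287). In each of the 3 CON mice, read as such from the library numbers, these 4 genes gained at least 2.01-fold. Cars2, Ears2, Hars2, Mars2 and Wars2 were not called: Hars2 was at 13.0, 12.9 and 13.0 FPKM at 0 h and at 12.5, 12.3 and 11.9 FPKM at 24 h, and Ears2, the mitochondrial glutamyl enzyme, was at 4.19, 4.03 and 3.21 FPKM and then at 3.01, 2.96 and 2.96 FPKM. Calls for Tars2 and Vars2, whose folds of the mean FPKM were 1.23 and 1.19, were lost when the mouse number was a block in the fit, which left 29 genes called.

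**Figure D2:**
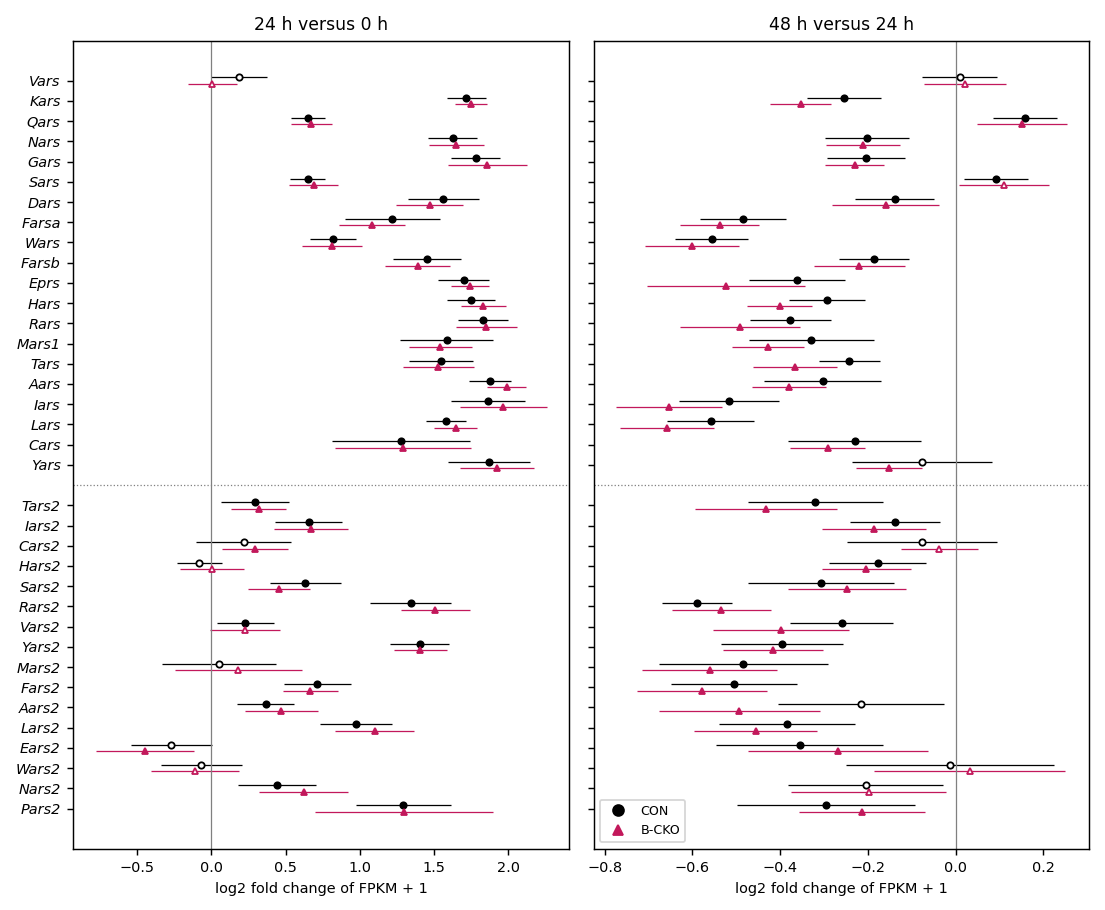
Fitted log2 fold change of FPKM + 1 with its 95% confidence interval for each gene shown by name, from 0 to 24 h (left) and from 24 to 48 h (right), cytosolic genes above the dotted line and mitochondrial genes below. Black circles are CON and red triangles B-CKO, filled where the adjusted p was under 0.05; at 24 h the median in CON was 1.58 over all 20 cytosolic and 0.44 over all 17 mitochondrial genes.

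Summed over each set, the cytosolic genes went from 729 ± 47.3 FPKM (SD, n = 3) at 0 h to 1775 ± 34.9 FPKM at 24 h in CON, and the mitochondrial genes from 152 ± 7.94 to 239 ± 7.45 FPKM. The ratio of the sums was 4.65 to 4.95 in the 3 CON libraries at 0 h, 7.29 to 7.53 at 24 h and 7.81 to 7.97 at 48 h, and the 3 ranges did not overlap. In B-CKO it was 4.96 to 5.43, then 7.58 to 7.84 and 7.91 to 8.07. Gars and Kars encode both the cytosolic and the mitochondrial form of their enzymes, and without these genes the CON mean of the ratio was 4.20, 6.17 and 6.58 at the 3 time points.

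**Figure D3:**
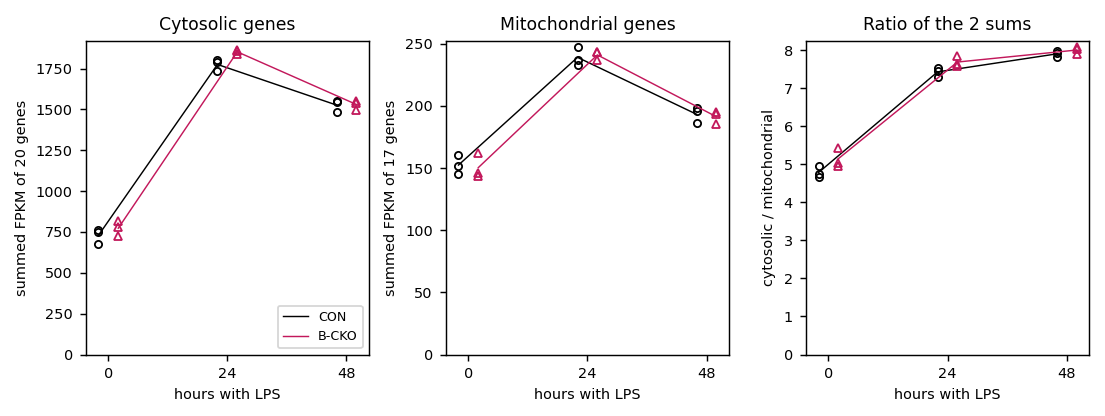
Summed FPKM of the 20 cytosolic genes, of the 17 mitochondrial genes and the ratio of the sums against hours with LPS. Symbols are single libraries (black circles CON, red triangles B-CKO, set slightly apart on the time axis), lines join the means of 3 libraries, and axes start at 0; the CON ratio rises from a mean of 4.78 to 7.43 at 24 h and 7.90 at 48 h.

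For 14 amino acids both a cytosolic and a mitochondrial gene were in the table, which allows a comparison within each library. At 0 h in CON the cytosolic gene exceeded the mitochondrial one by a median ratio of 2.83, with 19.8 for Vars over Vars2 (geometric mean of 3 mice) at one end and 0.88 for Cars over Cars2 at the other. At 24 h the median ratio was 6.29. For 12 of the 14 pairs all 3 CON libraries at 24 h had a higher ratio than all 3 at 0 h, the exceptions being the seryl and valyl pairs. The histidyl pair changed most, by 3.67 times: Hars over Hars2 was 1.81 to 2.08 at 0 h and 6.74 to 7.26 at 24 h. These neighbouring genes overlap by 4 bp in the RefSeq annotation. Between 24 and 48 h the pairs did not move as one, with 5 ratios above and 3 below the whole earlier range in CON. In B-CKO, 12 of 14 ratios also lay above the whole 0 h range at 24 h.

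**Figure D4:**
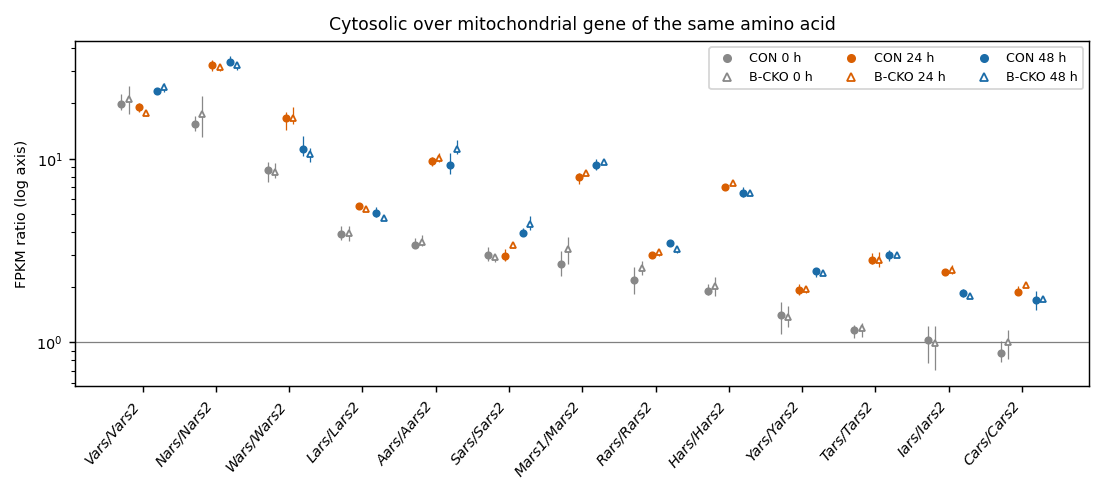
Ratio of the cytosolic to the mitochondrial gene (FPKM over FPKM, log axis) for the pairs shown by name, ordered by the CON ratio at 0 h. Symbols are geometric means of 3 mice and bars run from the lowest to the highest mouse; filled circles are CON, open triangles B-CKO, grey 0 h, orange 24 h and blue 48 h, and the Hars over Hars2 ratio of 1.91 in CON at 0 h becomes 7.03 at 24 h.

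Genes around tRNA charging moved with the synthetases to differing degrees. Of 14 synthetase-like and accessory genes, 9 were higher and 1 lower at 24 h in CON, with a median log2 fold change of 0.53. Aarsd1, an alanyl-tRNA editing gene, changed by 1.40 (SE 0.09, adjusted p = 3.78e-05) and Ptrh2, a peptidyl-tRNA hydrolase, by 1.05 (SE 0.17, adjusted p = 0.00225). Mitochondria have no glutaminyl enzyme and form their glutaminyl-tRNA with an amidotransferase instead: its subunit genes Gatb and Qrsl1 were called higher in CON and Gatc was not. Of 9 genes of translation control by uncharged tRNA, 8 were higher and 0 lower (median 1.19), led by Eif2s1 (2.10, SE 0.08, adjusted p = 8.65e-06), Eif2b3 (1.94, SE 0.08, adjusted p = 9.82e-06) and Eif2b1 (1.58, SE 0.09, adjusted p = 2.54e-05), which encode subunits of the initiation factors eIF2 and eIF2B. Eif2ak4, the kinase GCN2 that senses uncharged tRNA, was the gene not called.

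Of 20 amino acid response genes, 11 were higher and 4 lower at 24 h in CON (median 0.89). Psat1, an enzyme of serine synthesis, was at 9.51, 8.06 and 7.78 FPKM at 0 h and at 89.4, 103 and 103 FPKM at 24 h (log2 fold change 3.40, SE 0.10, adjusted p = 5.65e-06). Cebpb and Ddit3, which encode transcription factors, went the other way: Cebpb fell by 3.78 (SE 0.16, adjusted p = 1.10e-05) and Ddit3 by 3.27 (SE 0.23, adjusted p = 5.95e-05). Atf5, a further transcription factor gene, singled out after its values were seen, was higher (1.07, adjusted p = 0.00438). Atf4, singled out after its values were seen, was at 364, 430 and 365 FPKM at 0 h and at 165, 176 and 168 FPKM at 24 h (log2 fold change -1.18, SE 0.08, adjusted p = 5.28e-05). Asns, the asparagine synthetase gene, rose from 0.59 to 0.72 FPKM at 0 h to 9.76 to 13.0 FPKM. Ddit3 and Mars1 share 71 bp of span in the annotation, and they moved in opposite directions. The largest overlaps with genes of the table were those of Aars with Ddx19b (3974 bp) and of Farsb with Sgpp2 (2332 bp). Fars2 and Lars2 overlapped long noncoding RNA genes that are not in the table by 20270 and 8819 bp. Reads from the shared stretches cannot be assigned with certainty.

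From 24 to 48 h most synthetase genes came down a little. In CON, 28 of the 37 were lower and 2 higher, while over all genes tested 24.8% were lower and 20.1% higher, and over genes averaging 1 FPKM or more 35.6% were lower and 24.4% higher. The cytosolic genes gave 16 lower and 2 higher (median -0.25) and the mitochondrial genes 12 lower and 0 higher (median -0.30). These medians lay closer together than those of the first step. The ratio of the summed levels was nevertheless higher in every CON library at 48 h than in any at 24 h. Lars, the leucyl enzyme, went from 53.6, 58.4 and 55.5 FPKM to 37.9, 38.6 and 36.3 FPKM (log2 fold change -0.56, SE 0.04, adjusted p = 0.000116). Wars, the tryptophanyl enzyme, went from 48.8, 49.2 and 48.1 FPKM to 34.2, 32.4 and 31.8 FPKM (-0.56, SE 0.04, adjusted p = 6.85e-05). For both genes the 48 h values lay well below all 24 h values, and Wars came back to 1.21 times its 0 h mean. Iars changed by -0.52 (SE 0.05, adjusted p = 0.000245), Rars2 by -0.59 (SE 0.03, adjusted p = 4.82e-05), Fars2 by -0.51 (SE 0.06, adjusted p = 0.000676) and Mars2 by -0.48 (SE 0.08, adjusted p = 0.00291).

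Qars and Sars, the cytosolic genes that had risen least but for Vars, were the ones called higher in the second step. Qars was at 82.2, 79.5 and 83.8 FPKM at 24 h and at 90.6, 90.7 and 93.0 FPKM at 48 h (log2 fold change 0.16, SE 0.03, adjusted p = 0.00568). Sars changed by 0.09 (SE 0.03, adjusted p = 0.0478), and this call was lost with the mouse number as a block, which left 1 gene higher, and without any 1 of 5 of the 6 libraries, the first mouse at 48 h being the one that could be left out. At 48 h the median fold over the 0 h mean was 2.55 for the cytosolic genes and 1.18 for the mitochondrial genes in CON. Yars kept the largest fold of the 37, 3.64. Ears2 had the smallest, 0.56: its 48 h values of 2.01, 2.44 and 1.90 FPKM were below all those at 0 h. Of the scaffold genes, Eef1e1 fell by 0.92 (SE 0.10, adjusted p = 0.00039) and Aimp2 by 0.25 (SE 0.04, adjusted p = 0.00354), and of the 9 translation control genes 7 were lower and 1 higher. Among the accessory genes 8 of 14 were lower and 1 higher, and among the amino acid response genes 6 of 20 were lower and 5 higher.

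The markers of other cell types moved in the same cultures. From 0 to 24 h in CON, 9 of 9 T cell markers, 6 of 8 B cell markers and 3 of 5 plasma cell markers were called lower, and 0, 0 and 2 higher. The plasma cell markers summed to 251 to 420 FPKM at 0 h, 138 to 154 FPKM at 24 h and 194 to 316 FPKM at 48 h in CON, and 4 of 5 were called higher from 24 to 48 h. The sum hides members that moved apart, named here after their values were seen. Irf4, the largest part at 0 h, had CON means of 214, 64.1 and 59.6 FPKM at the 3 time points. Prdm1 rose from 2.74 to 7.01 and 16.4 FPKM, and Xbp1 from 44.3 to 56.3 and 122 FPKM. Jchain and Sdc1 fell and then came back in part. Their CON means were 89.6, 17.8 and 61.7 FPKM for Jchain and 5.69, 1.70 and 2.84 FPKM for Sdc1. The part of these cell types in the synthetase values was not tested.

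In B-CKO cells the same steps were seen with mice that share no library with CON. At 0 h, however, same-numbered libraries deviated together across genotypes, so the step from 0 h is not a wholly independent repeat. At 24 h, 31 of the 37 genes were higher and 1 lower, against 27.5% higher and 32.3% lower over all genes and 38.8% higher and 37.2% lower over genes averaging 1 FPKM or more. The cytosolic genes gave 19 of 20 higher (median 1.59), again with the exception of Vars, and the mitochondrial genes 12 higher and 1 lower of 17 (median 0.47). Aars was at 23.4, 21.9 and 21.6 FPKM at 0 h and at 94.8, 88.8 and 91.1 FPKM at 24 h (log2 fold change 1.99, SE 0.05, adjusted p = 2.58e-06). Iars, Yars, Gars and Rars followed at 1.96 (SE 0.12), 1.92 (SE 0.10), 1.86 (SE 0.11) and 1.85 (SE 0.08), with adjusted p of at most 2.54e-05. Among the mitochondrial genes Rars2 changed by 1.51 (SE 0.10, adjusted p = 2.95e-05), Yars2 by 1.41 (SE 0.07, adjusted p = 1.37e-05), Pars2 by 1.30 (SE 0.25, adjusted p = 0.00411) and Lars2 by 1.10 (SE 0.11, adjusted p = 0.0002). Ears2 went from 4.69, 4.52 and 3.24 FPKM to 2.85, 2.85 and 2.55 FPKM (-0.45, SE 0.14, adjusted p = 0.029), a call that was lost without any 1 of 5 of the 6 libraries, the third mouse at 0 h being the one that could be left out. With the mouse number as a block, the call of Cars2 as higher was lost.

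Between 24 and 48 h, 30 of the 37 genes were lower and 2 higher in B-CKO, beside 24% lower and 21.7% higher over all genes and 34.3% lower and 26.4% higher over genes averaging 1 FPKM or more. The cytosolic median was -0.36 and the mitochondrial median -0.27. Lars and Iars changed by -0.66 (SE 0.04, adjusted p = 5.52e-05) and -0.65 (SE 0.05, adjusted p = 9.10e-05), Wars by -0.60 (SE 0.04, adjusted p = 7.87e-05), Fars2 by -0.58 (SE 0.06, adjusted p = 0.000362), Mars2 by -0.56 (SE 0.06, adjusted p = 0.000506) and Rars2 by -0.53 (SE 0.05, adjusted p = 0.000161). Qars (0.15, SE 0.04, adjusted p = 0.0258) was called higher, a call that was lost without any 1 of the 3 libraries at 24 h. With the mouse number as a block 1 gene was higher, and the calls of Dars, Ears2 and Pars2 as lower were lost. The summed cytosolic level was 773 ± 46.0, 1852 ± 10.1 and 1530 ± 27.8 FPKM (SD, n = 3) at 0, 24 and 48 h.

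No synthetase gene was called between genotypes at any time point. At 0 h, 0 of 37 genes were called by limma and 0 had an unadjusted p under 0.05 (313 of all 15641 genes), and over all genes 0% were called higher and 0% lower. All 3 B-CKO values were above all 3 CON values for 0 of the 37 (1.92% of all genes) and below for 0 (1.94%). The largest differences were those of Farsa (log2 fold change 0.20, 95% interval -0.18 to 0.58), Vars (0.17, -0.07 to 0.41) and Farsb (0.16, -0.15 to 0.47), each with an adjusted p of 1. Over the 37 genes the 95% intervals reached from -0.78 to 0.74, so differences of that size were not excluded for the most variable genes. At 0 h the libraries with the same number deviated together across genotypes, and a fit with the replicate number as a block also called 0 of 37.

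At 24 h the spread was narrower. Limma called 0 of the 37 genes, 0.0132% of all genes higher and 0.0861% lower, and 9 of the 37 had an unadjusted p under 0.05, beside 2463 of all 15104 genes and 2101 of the 9711 averaging 1 FPKM or more. All 3 B-CKO values were above all 3 CON values for 8 of the 37 genes (8.43% of all genes) and below for 2 (11.7%). Among the 9711 genes averaging 1 FPKM or more, 1147 were above and 1546 below. The 8 were Aars, Eprs, Farsa, Gars, Hars, Iars, Kars and Rars, all cytosolic, and the 2 were Ears2 and Pars2, both mitochondrial, named after their values were seen. For Gars the CON values were 118, 122 and 121 FPKM and the B-CKO values 128, 128 and 129 FPKM. That difference was small (log2 fold change 0.09, 95% interval 0.04 to 0.14) and its adjusted p was 0.135, the lowest of the 37. The largest differences were those of Sars2 (-0.16, -0.33 to 0.01, adjusted p = 0.319), Pars2 (-0.11, -0.24 to 0.01, adjusted p = 0.338) and Lars2 (0.11, -0.02 to 0.24, adjusted p = 0.386). The cytosolic median was 0.07 with 19 of 20 genes above 0, the mitochondrial median 0.009 (-0.0006 with TPM) with 10 of 17 above 0, and over all genes the median was -0.005. Scaffold genes Aimp2 and Eef1e1 had all 3 B-CKO values above all CON values too, at 74.1, 74.8 and 73.6 against 65.0 to 68.6 FPKM for Aimp2, and were not called. The intervals of the 37 genes reached from -0.33 to 0.26.

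At 48 h limma called 0 of the 37, with 0.00657% of all genes higher and 0.0394% lower, and 1 had an unadjusted p under 0.05, beside 1172 of all 15210 genes. That gene was Aars2, at 6.96, 8.51 and 7.18 FPKM in CON and 6.47, 6.53 and 5.60 FPKM in B-CKO (log2 fold change -0.25, SE 0.10, 95% interval -0.47 to -0.02, adjusted p = 0.611). The next were Sars2 (-0.11, -0.24 to 0.03, adjusted p = 0.748) and Mars2 (-0.10, -0.32 to 0.12, adjusted p = 0.854). Without overlap, 1 gene lay above (Gars, with 4.89% of all genes) and 2 below (Tars and Aars2, with 6.24%). Among the 9857 genes averaging 1 FPKM or more, 595 lay above and 744 below. The cytosolic and mitochondrial medians were 0.003 and 0.002, and -0.02 for both with TPM.

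**Figure D5:**
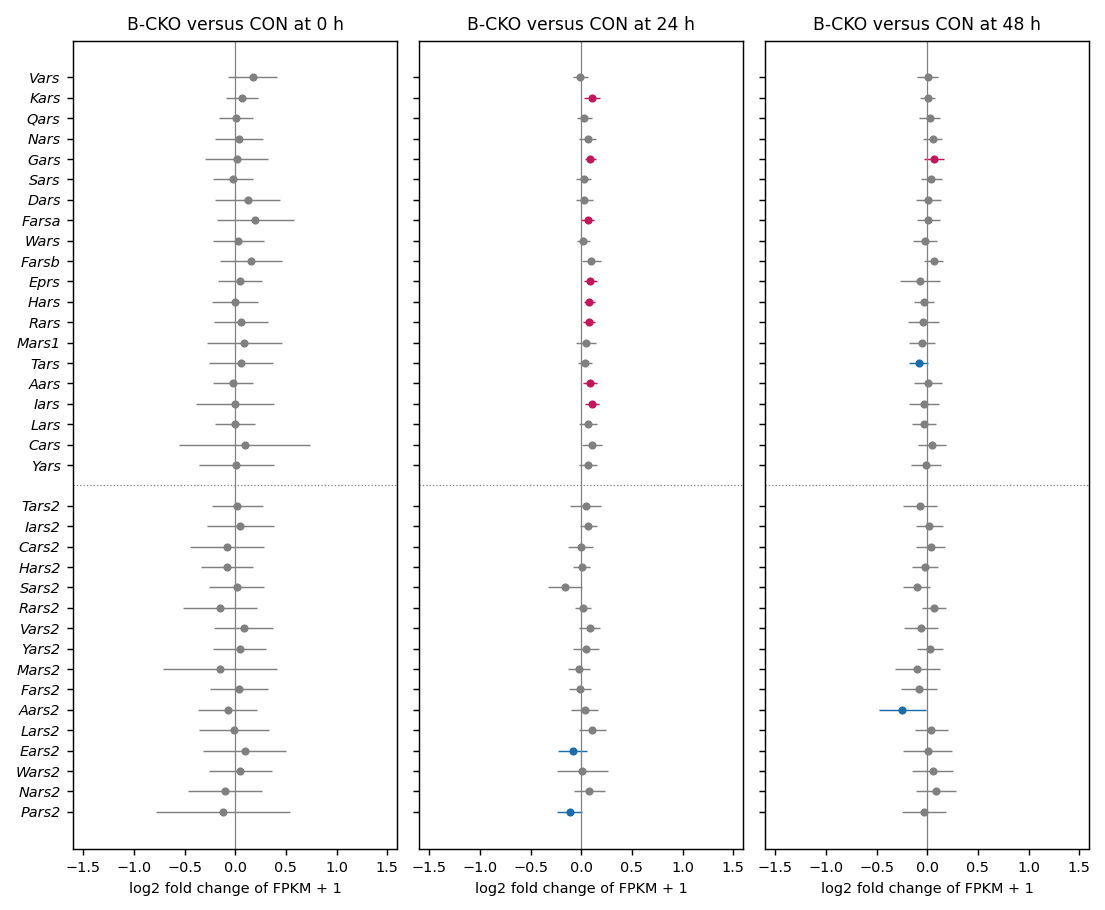
Fitted log2 fold change of FPKM + 1, B-CKO over CON, with its 95% confidence interval for each gene shown by name at 0, 24 and 48 h, cytosolic genes above the dotted line. Red marks genes whose 3 B-CKO values all exceed the 3 CON values, blue the opposite and grey an overlap; the 8 red genes at 24 h are all cytosolic, and no gene passed the threshold.

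The change over time was also set against genotype directly. For the step from 0 to 24 h the interaction term was called for 0 of the 37 genes and 0% of all genes, with 0 unadjusted p under 0.05 among the 37 and 467 among all 16182 genes. Its largest values were those of Vars (-0.18, 95% interval -0.41 to 0.05), Nars2 (0.18, -0.17 to 0.53) and Ears2 (-0.18, -0.57 to 0.21), each with an adjusted p of 1. For the step from 24 to 48 h it was again called for 0 of the 37 and 0% of all genes, with 4 unadjusted p under 0.05 among the 37 and 1158 among all 15844 genes. The largest were Aars2 (-0.28, -0.53 to -0.03, adjusted p = 0.649), Eprs (-0.16, -0.37 to 0.05, adjusted p = 0.763) and Vars2 (-0.14, -0.31 to 0.03, adjusted p = 0.753). The term was negative for all 8 genes of the multisynthetase complex (median -0.10) and for 10 of the 12 cytosolic genes outside it (median -0.05), while over all genes it was positive for 7686 of 15844. These values share the 24 h libraries with the comparison at 24 h.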

How the data were processed

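Per the labels and the study's methods, the authors mapped paired reads to mm10 with bowtie2, estimated abundance with Cufflinks and RSEM, and deposited 1 table of FPKM with 2 decimals for 18 libraries (BWA and DESeq2 are also named in the submitters' processing notes, and the labels name an MGI sequencer where the methods name Illumina ones). FPKM are not counts, so the count test that the study's notes name was not used. Fragment numbers are unknown. The lowest steps of 228 genes near 0 gave a relative depth of 0.932 to 0.978 at 0 h and 0.987 to 1.06 at 24 and 48 h. Strand was not given for the counting, so overlapping genes cannot be told apart. Columns of no sample numbered 0. NCBI gene IDs were matched to RefSeq symbols (16512 of 16545), and Trac and Ahsp were not matched.

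Groups came from the labels. Each comparison was fitted on its own groups in R 4.3.3 with limma 3.58.1 (trend) on log2(FPKM + 1), over genes above 0 FPKM in any library, two-sided, with Benjamini-Hochberg adjustment over all genes tested and a threshold of 0.05. Fold changes on this scale understate the change of low genes. The fits and the depth estimate were tested on simulated data. Every comparison tried there made more false calls than the threshold allows, and the 24 h comparison in CON had the largest share. The genotype comparison at 0 h missed most of the smaller changes. Members, gene lists and promoter motifs were chosen with earlier results of these data known. Genes were given with errors by this rule: in each time comparison, up to 5 higher and 3 lower called genes per set by size, in each genotype comparison or interaction every called gene and the 3 largest, and per list up to 3 called genes by size. Some genes that this rule names are not reported here and are left out of the figures, but they count in totals, medians and numbers of calls. The backgrounds over genes averaging 1 FPKM or more were added after seeing the data. Libraries of the same genotype and number were read as 1 mouse from the titles. Across genotypes, deviations from group means of same-numbered libraries correlated by 0.854, 0.468 and 0.789 at 0 h, but by 0.091 to 0.2 at 24 h and by -0.037 to 0.23 at 48 h, so the numbers paired the genotypes at 0 h alone. Within a genotype these correlations over time were -0.068 to 0.183. Alternatives were a pseudocount of 0.1, an average of 1 FPKM or more, rescaling to TPM, median-ratio scaling, a replicate block, 1 fit of all 18 libraries and leaving out each library. Python 3.11.15 and matplotlib 3.10.9 drew the figures.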

Additional observations from a re-analysis of the deposited data

How the results depend on the processing

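With 3 mice a group and values in FPKM, small differences at 0 h had wide intervals, and fragment numbers were unknown. In the comparisons between genotypes and in both interactions, 0 of the 37 genes were called under every alternative run, including the replicate block and, chosen after seeing the data, the block with an average of 1 FPKM or more. The count over all genes moved more: at 24 h it was 15, but 388 with an average of 1 FPKM or more, 46 with a pseudocount of 0.1, 5 with the block, 8 in 1 fit of all 18 libraries and 704 with the block and the filter together. At 48 h it was 7, but 29 with the filter, 3 with the block, 11 in the fit of all 18 and 116 with block and filter. At 0 h it was 0, but 2, 25 and 22 with the filter, the fit of all 18, and block and filter, and for the interaction from 0 to 24 h it was 0, but 2 in the fit of all 18. Of these calls 13.3% were higher at 24 h (0 to 29.5% over the alternatives, the extremes being the block and the block with the filter). At 48 h 14.3% were higher, but 0% of 5 with median-ratio scaling, 0% with the block, 36.4% in the fit of all 18, 41.4% with the filter and 50.9% with block and filter.

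No named log2 fold change turned its direction under any alternative. The total number of genes called in each time comparison stayed within 1.5 times under all of them, but the small counts moved. With TPM, 2 genes (Ears2 and Hars2) were lower at 24 h in CON, and without one library in turn 0 to 1 were. In CON from 24 to 48 h, 1 gene was higher in place of 2 with a pseudocount of 0.1, with an average of 1 FPKM or more, with TPM, with the replicate block and in 1 fit of all 18 libraries, and 1 to 2 without one library in turn. In B-CKO from 24 to 48 h, 0 were higher with TPM, 1 with the replicate block, 1 in 1 fit of all 18 libraries and 0 to 2 without one library in turn. In B-CKO at 24 h, 0 to 1 were lower without one library in turn. The cause of these shifts was not tested. The paired fits changed no call of the 37 genes between genotypes.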
